A study of Mus musculus and Homo sapiens with 81 samples.

Results

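The comparison asked whether the transcriptional change caused by interferon gamma (IFNg) differed between 3 human cancer cell lines: A549, HT29 and MelJuSo. A549 is a lung cancer line, HT29 a colon cancer line and MelJuSo a melanoma line. The members were the 14 RNA-seq libraries, of 81 in the series, whose cells expressed Cas9, carried the non-targeting guide RNA Bro4 from a lentivirus, and were given IFNg at 100 ng/mL or vehicle for 48 h. A549 and HT29 each had 2 vehicle and 2 IFNg libraries, and MelJuSo had 3 of each. The vehicle was PBS with BSA. The series as a whole examined cytokine responses of cancer cells with and without a deletion of the phosphatase gene PTPN2, and all libraries compared below came from cells with the control guide. Another human line, A375, was left out by the rule that chose the members, because of doubt about its vehicle labels. Each line had 1 control guide, so a difference between lines covers everything that distinguishes these cultures. The labels do not say that replicates were separate cultures. The p-values thus reflect spread between these libraries, and that spread may be only technical.

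IFNg binds a receptor made of IFNGR1 and IFNGR2, which activates the kinases JAK1 and JAK2. The signal they start switches on a first set of genes, among them the transcription factor IRF1, and these in turn activate antigen presentation, chemokine and antiviral genes. SOCS proteins and phosphatases such as PTPN2 restrain the pathway. In tumour cells the response is known for raising MHC molecules and the checkpoint ligand PD-L1 and for slowing growth.

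The libraries held between 6320043 and 8616634 counts, and 14302 of 23227 genes passed the filter on low counts. Levels below are in CPM, the counts of a gene relative to the TMM-scaled library size, changes are on the log2 scale, and a gene was called where the adjusted p of edgeR's quasi-likelihood test was below 0.05 over all 14302 genes. The lines were checked against marker lists. In A549 the summed level of the lung and A549 list was 15380 to 15436 CPM with vehicle and 12517 to 12641 CPM with IFNg, most of it from the aldehyde dehydrogenase gene ALDH1A1, while 3 of its 16 genes were at 0 and the lung transcription factor NKX2-1 and the surfactant genes were at or near 0. In HT29 the colon list summed to 633 to 638 CPM with vehicle and to 1080 to 1123 CPM with IFNg, led by KRT20, while the intestinal factors CDX1 and CDX2 did not exceed 1.52 CPM. Of the 12 colon markers tested, 3 rose and 5 fell in HT29. In MelJuSo the melanocyte list summed to 5627 to 5755 CPM and 5565 to 5822 CPM. The melanocyte list did not exceed 86 CPM in A549 or 22 CPM in HT29. Keratin and junction genes summed to 5613 to 6497 CPM in A549, 8366 to 10310 CPM in HT29 and at most 10.7 CPM in MelJuSo. The leukocyte list summed to 2594 to 2694 CPM with vehicle and 2402 to 2484 CPM with IFNg in HT29, nearly all from the lysozyme gene LYZ (2376 to 2677 CPM), while PTPRC, which encodes the common leukocyte antigen, did not exceed 0.294 CPM in any line. That list did not exceed 29.7 CPM in the other lines. Fibroblast and endothelial genes summed to at most 6.94 CPM in A549, 3.77 CPM in HT29 and 92.9 CPM in MelJuSo. ALDH1A1 moved with treatment in each line. It fell by 0.24 in A549 and by 2.26 in HT29, where the lung list summed to 756 to 779 CPM with vehicle and 174 to 183 CPM with IFNg. In MelJuSo ALDH1A1 stood at 3.75, 4.49 and 4.2 CPM in the vehicle libraries and at 1.30, 0.872 and 0 CPM in the IFNg libraries. The part of this in the results was not tested. One HT29 IFNg library carries a lung label for its cell type beside the HT29 line label. Its colon marker sum lay with that of the other HT29 IFNg library.

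In these control-guide libraries HT29 gave the broadest response and MelJuSo the narrowest. In HT29, 3599 genes were called higher with IFNg (25.2% of those tested) and 4041 lower (28.3%), 53.4% in all, of which 1212 (8.47%) rose and 845 (5.91%) fell at least 2-fold. In A549, 3045 genes (21.3%) were called higher and 3012 (21.1%) lower, 42.4% in all, with 454 (3.17%) up and 408 (2.85%) down at least 2-fold. In MelJuSo, which had the most libraries, 647 genes (4.52%) were called higher and 949 (6.64%) lower, with 142 (0.993%) up and 23 (0.161%) down at least 2-fold. DESeq2 called 793 genes in MelJuSo where edgeR called 1596 (11.2%). Over the 10669 genes with more than 10 counts in each of the 6 groups, the 5th to 95th percentiles of the log2 change ran from -0.97 to 1.17 in HT29, from -0.63 to 0.68 in A549 and from -0.26 to 0.27 in MelJuSo.

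The change differed between at least 1 pair of lines for 7814 genes (54.6%). Between A549 and HT29, 5998 genes (41.9%) differed, 3156 (22.1%) with the more positive change in A549 and 2842 (19.9%) with the more positive change in HT29. Between A549 and MelJuSo, 3934 genes (27.5%) differed, 2176 (15.2%) with the more positive change in A549 and 1758 (12.3%) with the more positive change in MelJuSo. Between HT29 and MelJuSo, 5552 genes (38.8%) differed, 2745 (19.2%) above and 2807 (19.6%) below. Each pair of contrasts shares the libraries of 1 line. Differences of at least 2-fold numbered 741 (5.18%) and 1010 (7.06%) for A549 above and below HT29, 320 (2.24%) and 222 (1.55%) for A549 above and below MelJuSo, and 892 (6.24%) and 590 (4.13%) for HT29 above and below MelJuSo.

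**Figure D1:**
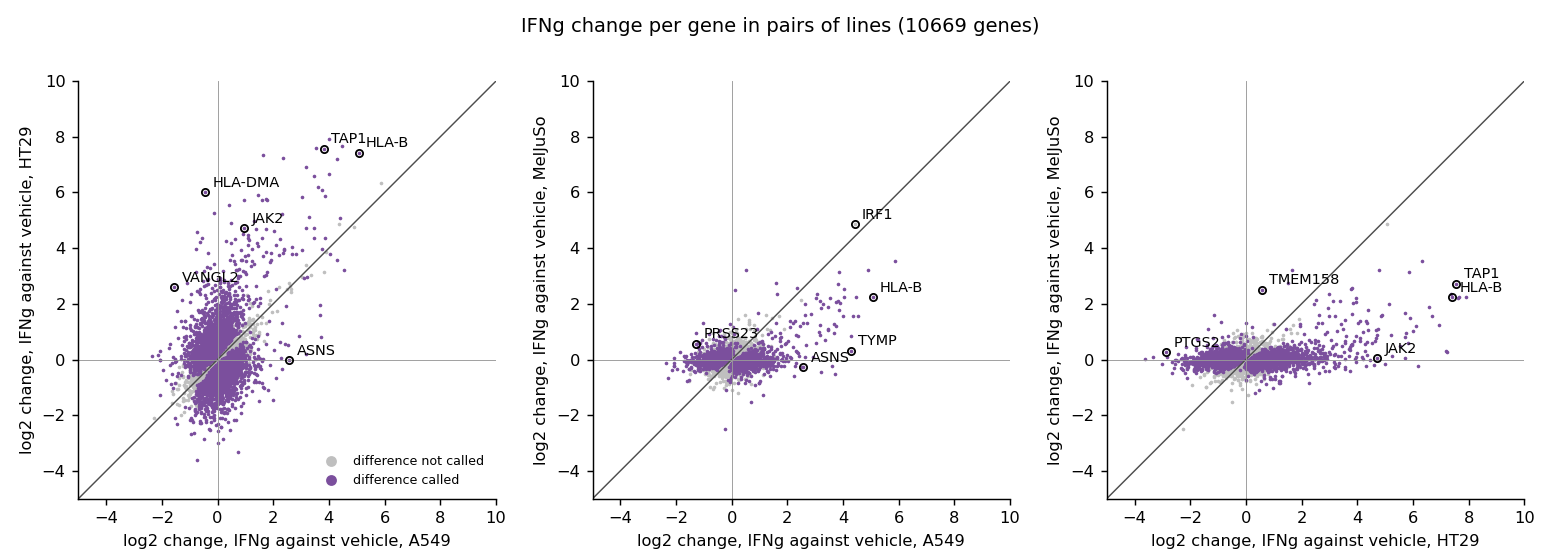
Log2 change with IFNg against vehicle in 1 line (x axis) and another (y axis), for the 10669 genes with more than 10 counts in every group; each point is a gene, purple points are genes whose difference between the 2 lines was called, and the diagonal marks equal change. Called points spread far along the HT29 axis and least along the MelJuSo axis; JAK2 lies at 4.72 in HT29 and 0.05 in MelJuSo.

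The directions of small differences depended on scaling. With total counts in place of TMM, the median change of the 10669 genes moved from -0.06 to -0.28 in HT29, and only 27% of its called genes were higher, against 47.1% with TMM. In A549 it moved from 0.01 to -0.04 and in MelJuSo from -0.02 to -0.01. The split of differences became 4631 above and 1992 below for A549 against HT29, 1729 and 2242 for A549 against MelJuSo, and 1702 and 5034 for HT29 against MelJuSo. For A549 against HT29, the 3156 above and 2842 below under TMM turned the other way with RLE size factors (2671 and 3200), TMM within each line (2877 and 3043), a mean of at least 1 CPM in every line (2606 and 2832) and DESeq2 (2060 and 2706). For A549 against MelJuSo, 2176 above and 1758 below became 1906 and 2007 with RLE, 1660 and 2100 with that filter and 1408 and 1426 with DESeq2. For HT29 against MelJuSo, 2745 above and 2807 below became 2937 and 2566 with RLE, 2917 and 2623 with TMM within each line and 2512 and 2000 with DESeq2. In MelJuSo, 647 higher and 949 lower became 766 and 710 when TMM was computed within each line.

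Of the 16 genes of the receptor and JAK-STAT list, 14 differed between lines. HT29 raised 13 and lowered 1, A549 raised 6 and lowered 3, and MelJuSo raised 6 and lowered 0. Over all genes tested the shares were 25.2% and 28.3% in HT29, 21.3% and 21.1% in A549 and 4.52% and 6.64% in MelJuSo, and 54.6% differed between lines. These shares are the background for every list below. The median change of the list was 1.31 in HT29, 0.01 in A549 and 0.07 in MelJuSo, beside 0, 0 and -0.0049 for all genes tested. In these and every list median below, a gene with fewer than 3 counts in a group is set at that floor. The change was more positive in HT29 than in A549 for 13 of the 16, and 0 showed the reverse.

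JAK2, a receptor-bound kinase that starts the signal, separated the lines. Its level in A549 was 17.6 and 20.5 CPM with vehicle and 36.4 and 38.0 CPM with IFNg. HT29 moved from 8.30 and 8.97 CPM to 231 and 226 CPM, and MelJuSo held 14.6, 13.9 and 14.1 CPM with vehicle and 12.2, 16 and 15.8 CPM with IFNg. HT29 with IFNg stood apart from all other groups, although its vehicle level was the lowest, and the MelJuSo groups overlapped. Differences between lines are given here and below as the first line minus the second. The difference was -3.76 for A549 minus HT29 (adjusted p = 2.40e-67) and 4.67 for HT29 minus MelJuSo (adjusted p = 2.00e-92).

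STAT2, a transcription factor of antiviral signalling, was at 35.3 and 36.1 CPM in A549 with vehicle and at 102 and 114 CPM with IFNg. In HT29 it went from 29.2 and 26.4 CPM to 575 and 572 CPM. In MelJuSo it was at 36.8, 37.2 and 37.8 CPM with vehicle and between 87.8 and 93.45 CPM with IFNg. The vehicle levels of the 3 lines lay between 26.4 and 37.8 CPM, every IFNg library lay above every vehicle library of its line, and HT29 with IFNg stood far above the others. The rise was 4.37 ± 0.06 (SE) in HT29, 1.59 ± 0.08 in A549 and 1.30 ± 0.06 in MelJuSo. A549 minus HT29 was -2.78 (95% interval -3.00 to -2.56, adjusted p = 1.13e-79). STAT3 rose by 1.74 ± 0.05 in HT29, 0.28 ± 0.05 in A549 and 0.49 ± 0.04 in MelJuSo.

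The receptor genes and JAK1 changed less. IFNGR1, the ligand-binding chain, rose by 1.49 ± 0.06 in HT29 and by 0.56 ± 0.08 in A549, and its MelJuSo groups overlapped (0.03 ± 0.06). IFNGR2, the second chain, fell by 0.28 in A549 and rose by 0.23 ± 0.09 in HT29, a difference of -0.50 (adjusted p = 0.000528). The fall in A549 was lost without its IFNg replicate 2 (-0.17, adjusted p = 0.271) or vehicle replicate 2 (adjusted p = 0.0565). The rise in HT29 was lost with total-count scaling (0.01, adjusted p = 1) and without its vehicle replicate 1 (0.12, adjusted p = 0.394) or IFNg replicate 2 (adjusted p = 0.0953). JAK1 fell by 0.24 in A549 (adjusted p = 7.03e-08) and rose by 0.45 ± 0.06 in HT29. MYD88, an adaptor of Toll-like and interleukin-1 receptors, rose in HT29 (2.24 ± 0.06) and MelJuSo (0.32 ± 0.06), with a change of -0.07 ± 0.09 in A549.

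Negative regulators also differed, in 13 of 14 genes tested. HT29 raised 9 and lowered 3, A549 raised 6 and lowered 2, and MelJuSo raised 4 and lowered 2. SOCS1, which inhibits JAK kinases, was nearly silent with vehicle in HT29 (0.415 and 0 CPM) and stood at 62.3 and 65.5 CPM with IFNg, 323 times the vehicle level (95% counting interval 110 to 1568). It rose by 2.22 ± 0.45 in A549, to 3.57 and 3.38 CPM, and by 1.27 ± 0.39 in MelJuSo, to 2.32, 1.99 and 1.89 CPM. The SOCS1 call in MelJuSo was lost without IFNg replicate 1 (adjusted p = 0.0538), vehicle replicate 2 (0.89, adjusted p = 0.178) or vehicle replicate 3 (adjusted p = 0.088). SOCS3 rose in all 3 lines, by 5.40 ± 0.27 in HT29, where its vehicle level was 0.553 and 0.505 CPM, and by 1.34 ± 0.09 in A549 and 0.94 ± 0.05 in MelJuSo, whose vehicle levels were between 28.3 and 85.4 CPM. USP18, which restrains type I interferon signalling, rose by 5.54 ± 0.22 in HT29, where the other lines showed 0.39 ± 0.30 (A549) and 0.50 ± 0.17 (MelJuSo). DUSP5, a phosphatase of ERK kinases, rose in HT29 (3.16 ± 0.10) and A549 (1 ± 0.06) and fell by 0.28 in MelJuSo, a fall lost with DESeq2 (adjusted p = 0.0768) and without MelJuSo IFNg replicate 3 (adjusted p = 0.172), vehicle replicate 1 (adjusted p = 0.118) or vehicle replicate 2 (adjusted p = 0.053). PTPN2 itself, the gene the wider study deleted, changed little: 0.28 ± 0.11 in A549, 0.46 ± 0.10 in HT29 and -0.02 ± 0.12 in MelJuSo. The PTPN2 call in A549 was lost in 5 of the alternative fits, among them those without A549 IFNg replicate 1 (0.12, adjusted p = 0.546) and vehicle replicate 1 (0.17, adjusted p = 0.349).

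**Figure D2:**
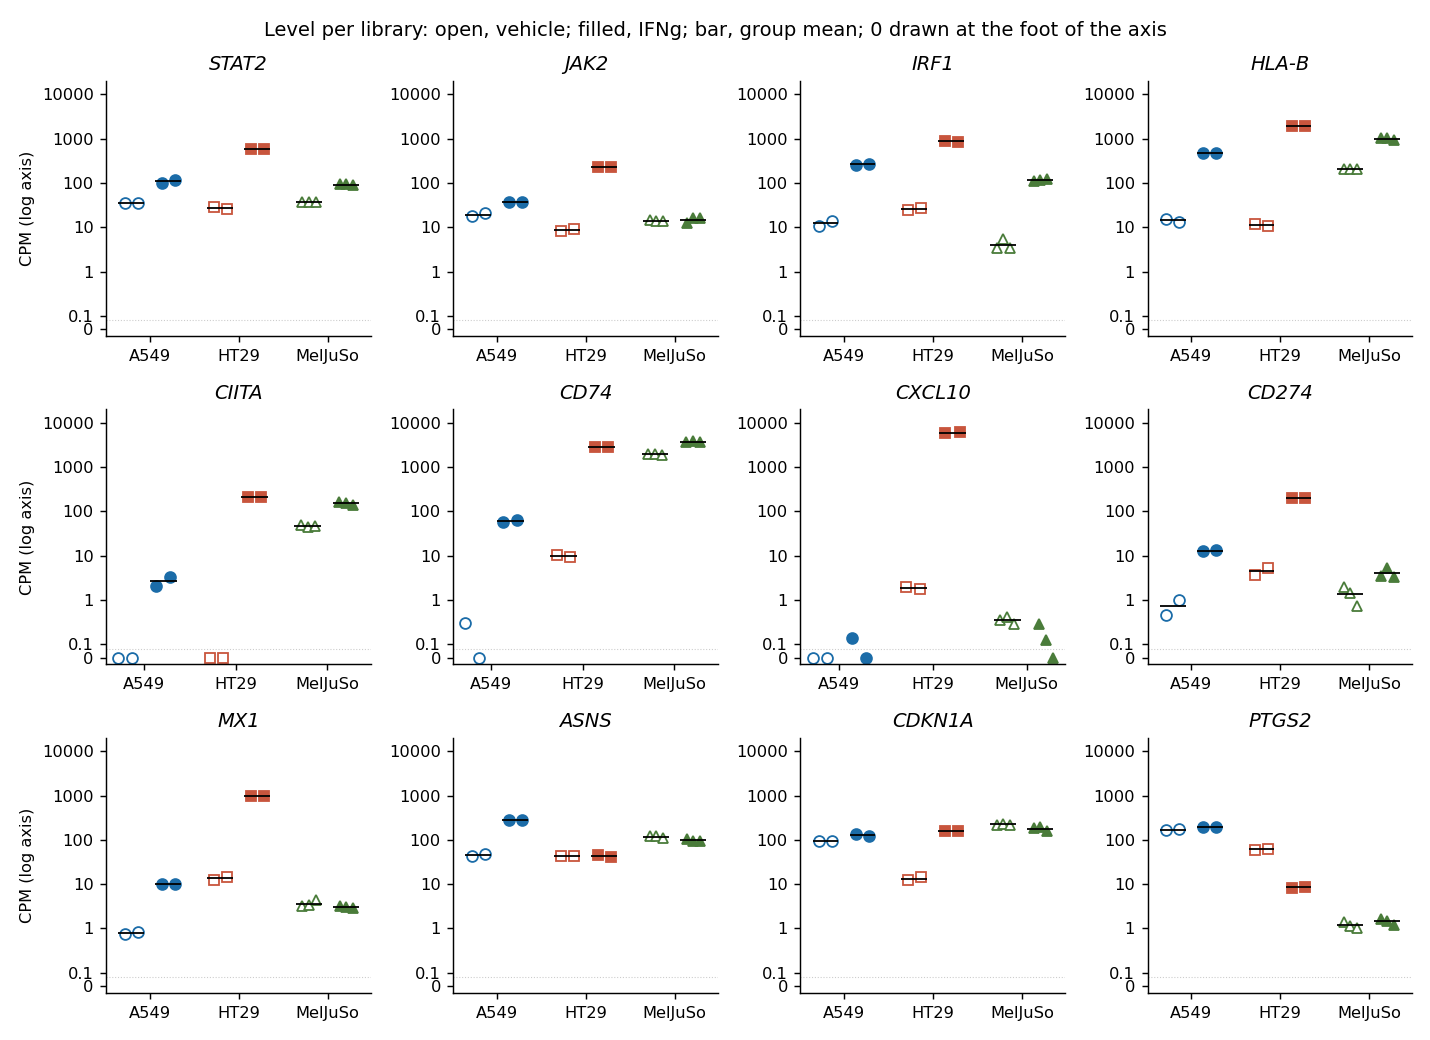
Level in CPM (log axis) of 12 genes in each of the 14 libraries; open symbols are vehicle, filled symbols IFNg, horizontal bars the group means where no library is at 0, and libraries at 0 are drawn at the foot of the axis. IRF1 rises in all 3 lines, JAK2, MX1 and CXCL10 separate HT29 from MelJuSo, and CIITA and CD74 start high in MelJuSo.

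IRF1, a factor induced early by IFNg and itself an activator of MHC genes, rose steeply in every line, with small differences between them. A549 libraries held 10.8 and 13.9 CPM with vehicle and 260 and 269 CPM with IFNg. HT29 libraries held 24.2 and 27.4 CPM and then 876 and 859 CPM, and MelJuSo libraries 3.40, 5.33 and 3.33 CPM and then 112, 117 and 122 CPM. No groups overlapped within a line. The rises were 4.42 ± 0.08 in A549, 5.07 ± 0.06 in HT29 and 4.87 ± 0.09 in MelJuSo. A549 minus HT29 was -0.65 (adjusted p = 3.02e-05). The other pairs were not called different: HT29 minus MelJuSo was 0.20 (95% interval -0.15 to 0.55, adjusted p = 0.42) and A549 minus MelJuSo was -0.45 (95% interval -0.81 to -0.09, adjusted p = 0.0568).

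Of the 12 genes on the interferon regulatory factor list, 6 differed between lines, near the 54.6% of all genes tested. The list had 7 genes raised in A549, 9 in HT29 and 4 in MelJuSo, and none lowered. IRF9, a DNA-binding partner of STAT2, rose by 2.48 ± 0.11 in A549, 2.53 ± 0.09 in HT29 and 2.14 ± 0.11 in MelJuSo, and the joint test over the lines made no call (adjusted p = 0.0766). The single difference HT29 minus MelJuSo was called (0.39, 95% interval 0.07 to 0.71, adjusted p = 0.044), but it was lost in 11 of the 22 alternative fits. A549 minus HT29 was -0.05 (adjusted p = 0.905) and A549 minus MelJuSo was 0.34 (adjusted p = 0.148). The joint test passed the threshold without A549 vehicle replicate 1 (adjusted p = 0.0419), HT29 IFNg replicate 1 (adjusted p = 0.0345) or MelJuSo vehicle replicate 2 (adjusted p = 0.0311). IRF7, which drives type I interferon genes, rose by 3.14 ± 0.07 in HT29 and 1.77 ± 0.23 in A549 and was not called in MelJuSo (0.47 ± 0.18). IRF2 rose by 1.98 ± 0.10 in HT29 and 0.62 ± 0.12 in A549, beside 0.04 ± 0.07 in MelJuSo. BATF2, a factor that acts with IRF1, rose by 5.85 ± 0.20 in A549 and 6.33 ± 0.14 in HT29, a pair not called different (-0.48, 95% interval -1.47 to 0.51), and by 3.53 ± 0.12 in MelJuSo.

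All 22 genes of the MHC class I list differed between lines. HT29 raised 22, A549 raised 20 and lowered 1, and MelJuSo raised 20 and lowered 1, so the direction was largely common and the size was not. The median change was 3.44 in HT29, 3.09 in A549 and 1.45 in MelJuSo. The change was more positive in HT29 than in MelJuSo for all 22 genes, in A549 than in MelJuSo for 18 with the reverse for 1, and in HT29 than in A549 for 15 with the reverse for 2. Near-identical HLA genes and the overlapping pair PSMB9 and TAP1 may have shared reads, since the strand setting of the counting is not given in the sources used here.

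HLA-B, a classical class I heavy chain, was at 15.6 and 12.9 CPM in A549 with vehicle and at 483 and 471 CPM with IFNg. HT29 moved from 12 and 10.7 CPM to 1935 and 1968 CPM. MelJuSo started at 212, 212 and 209 CPM and reached 1025, 1032 and 946 CPM. MelJuSo thus had the highest vehicle level and the smallest rise (2.25 ± 0.03, against 5.07 ± 0.07 in A549 and 7.42 ± 0.06 in HT29), and its IFNg level lay between those of the other lines. The difference between HT29 and MelJuSo was 5.17 (adjusted p = 1.94e-211). HLA-C repeated the order, with vehicle levels of 661 to 680 CPM in MelJuSo against 32.9 to 51.6 CPM in the others and rises of 1.09 ± 0.03, 3.45 ± 0.06 (A549) and 4.74 ± 0.05 (HT29).

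B2M, the light chain shared by class I molecules, was raised by 3.75 ± 0.04 in A549, 3.96 ± 0.04 in HT29 and 2.07 ± 0.03 in MelJuSo. The difference of -0.21 between A549 and HT29 became -0.04 with total-count scaling (adjusted p = 0.564). The rise in MelJuSo was smaller than in A549 by 1.68 (adjusted p = 6.95e-127) and than in HT29 by 1.89 (adjusted p = 1.11e-154). TAP1 and TAP2 encode the peptide transporter. TAP1 rose by 7.57 ± 0.07 in HT29, from 7.05 and 9.10 CPM to 1549 and 1535 CPM, by 3.83 ± 0.06 in A549 and by 2.72 ± 0.05 in MelJuSo. TAP2 rose by 4.72 ± 0.05, 3.17 ± 0.06 and 0.88 ± 0.04 in the same order. NLRC5, the transactivator of class I genes, rose by 9.43 ± 0.14 in HT29 from 0.691 and 0.253 CPM, by 4.32 ± 0.13 in A549 and by 3.50 ± 0.11 in MelJuSo. The immunoproteasome subunit PSMB9 rose by 7.93 ± 0.13 in HT29, 4.02 ± 0.10 in A549 and 2.26 ± 0.08 in MelJuSo.

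MHC class II genes showed 3 different states. Of 19 tested, 17 differed between lines, with 16 raised and 2 lowered in HT29, 15 raised in MelJuSo, and 8 raised and 2 lowered in A549. The median change with genes near 0 set at the floor was 6.01 in HT29, 1.08 in MelJuSo and 0.02 in A549, where the fitted medians without that floor were 7.44, 1.08 and 2.11. The master regulator CIITA had no count in the vehicle libraries of A549 and HT29. With IFNg it was at 2.06 and 3.38 CPM in A549, at least 12.3-fold higher, and at 209 and 212 CPM in HT29, at least 1063-fold higher. MelJuSo expressed CIITA with vehicle, at 50.0, 44.4 and 47.0 CPM, and held 162, 151 and 142 CPM with IFNg, a rise of 1.68 ± 0.06. The IFNg level of A549 was thus far below the vehicle level of MelJuSo.

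HLA-DRA, a class II heavy chain, followed CIITA. It had no count with vehicle in HT29 and 1051 and 1011 CPM with IFNg, at least 5205-fold higher. In A549 it had none with vehicle and 0.824 and 0.883 CPM with IFNg, at least 3.88-fold higher. MelJuSo went from 851, 870 and 854 CPM to 1792, 1809 and 1853 CPM, a rise of 1.08 ± 0.03. With IFNg all HT29 and MelJuSo libraries were above 1000 CPM and both A549 libraries below 1 CPM, and with vehicle HLA-DRA had counts in MelJuSo alone. CD74, the invariant chain that guides class II assembly, was well above the floor in A549 with IFNg: 0.303 and 0 CPM with vehicle and 57.5 and 62.5 CPM with IFNg, 409 times the vehicle level (95% counting interval 113 to 3385). It rose by 8.16 ± 0.06 in HT29, to 2783 and 2885 CPM, and by 0.96 ± 0.03 in MelJuSo, from 1862 to 1981 CPM to 3605 to 3917 CPM, a difference of 7.20 between those lines (adjusted p = 1.59e-235).

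The peptide-loading chains HLA-DMA and HLA-DMB did not rise in A549. HLA-DMB, a gene chosen after its values were seen, fell by 1.43 in A549 (32.0 and 34.6 CPM to 12.4 and 12.4 CPM, adjusted p = 4.27e-23) and rose by 1.43 ± 0.07 in MelJuSo and 7.44 ± 0.23 in HT29. HLA-DMA rose by 6.01 ± 0.12 in HT29 and 1.03 ± 0.05 in MelJuSo and was not called in A549 (-0.44 ± 0.22). A549 minus MelJuSo was -2.86 for HLA-DMB (adjusted p = 6.01e-56) and -1.47 for HLA-DMA (adjusted p = 2.11e-09).

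Chemokine genes were raised mainly in HT29. Of 15 genes tested from a list of 18, HT29 raised 13 and lowered 0, A549 raised 7 and lowered 2, and MelJuSo raised 1 and lowered 2, and 10 differed between lines. The median change was 2.60 in HT29, 0.65 in A549 and 0.00 in MelJuSo. CXCL10, which attracts T cells through CXCR3, was at 1.94 and 1.77 CPM in HT29 with vehicle and at 5972 and 6088 CPM with IFNg, a rise of 11.66 ± 0.07. A549 held 0 and 0 CPM with vehicle and 0.137 and 0 CPM with IFNg, and MelJuSo 0.352, 0.421 and 0.290 CPM and then 0.290, 0.125 and 0 CPM. Every library of these lines stood far below every HT29 IFNg library, and no fold was taken. The related genes CXCL9 and CXCL11 reached 444 and 464 CPM and 2525 and 2415 CPM in HT29 and at most 0.824 CPM in any library of the other lines.

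Other chemokines separated the lines at higher levels. CXCL16, a membrane-bound chemokine, rose by 2.61 ± 0.10 in HT29, 0.67 ± 0.19 in MelJuSo and 0.42 ± 0.10 in A549, and the CXCL16 call in MelJuSo was lost without IFNg replicate 3 (adjusted p = 0.0682) or vehicle replicate 3 (adjusted p = 0.0625). CX3CL1 rose by 8.33 ± 0.19 in HT29, to 137 and 129 CPM, while no library of the other lines passed 2.61 CPM. CXCL1, a neutrophil attractant, rose by 1.76 ± 0.14 in HT29 and fell by 0.72 in A549 and by 0.58 in MelJuSo. IL8, which acts on the same cells, rose by 1.30 ± 0.07 in HT29 and 0.68 ± 0.23 in A549 and fell by 0.58 in MelJuSo. The IL8 call in A549 was lost without IFNg replicate 2 (adjusted p = 0.0777) or vehicle replicate 1 (adjusted p = 0.0808).

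Among T cell ligands and checkpoint genes, 13 of 17 tested (from a list of 21) differed between lines, with 13 raised in HT29, 12 in A549 and 5 in MelJuSo and 1, 2 and 0 lowered. CD274, which encodes PD-L1, stood at 0.455 and 0.992 CPM in A549 with vehicle and at 12.5 and 13.4 CPM with IFNg. HT29 went from 3.73 and 5.31 CPM to 201 and 198 CPM. MelJuSo went from 1.99, 1.40 and 0.725 CPM to 3.48, 5.23 and 3.37 CPM. The groups did not overlap in any line, and the HT29 libraries with IFNg were far above those of the other lines. The rise was 4.11 ± 0.32 in A549, 5.45 ± 0.11 in HT29 and 1.51 ± 0.28 in MelJuSo. HT29 minus MelJuSo was 3.94 (adjusted p = 3.09e-18). The A549 vehicle libraries held too few CD274 counts for a difference from A549 to be given. The size of the A549 rise rests on those few counts.

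CD47, the "do not eat me" ligand, rose in all 3 lines, by 2.54 ± 0.06 in HT29 and by 0.43 in both A549 (SE 0.07) and MelJuSo (SE 0.05), a pair whose difference had a 95% interval of -0.17 to 0.16. BTN3A1, which takes part in the phosphoantigen response of gamma delta T cells, rose by 5.22 ± 0.14, 2.32 ± 0.12 and 0.87 ± 0.08 in HT29, A549 and MelJuSo. BTN3A3 rose by 6.10 ± 0.20, 3.74 ± 0.22 and 1.22 ± 0.13 in that order. TNFRSF14, the receptor of BTLA, had no count with vehicle in A549 and 5.90 and 4.56 CPM with IFNg, at least 23.9-fold higher, rose by 2.24 ± 0.11 in HT29, and stood at 104 to 116 CPM throughout in MelJuSo (0.04 ± 0.05).

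Among antiviral interferon-stimulated genes, all 36 rose in HT29, 34 in A549 and 27 in MelJuSo, none fell in any line, and 33 differed between lines. The median change was 5.16, 3.10 and 0.97. The change was more positive in HT29 than in A549 for 24 genes and the reverse held for 3, it was more positive in A549 than in MelJuSo for 25, and in HT29 than in MelJuSo for 28 with the reverse for 1. MX1, an antiviral GTPase, was at 0.758 and 0.850 CPM in A549 with vehicle and at 10.0 and 9.86 CPM with IFNg. HT29 moved from 12.3 and 14.7 CPM to 987 and 983 CPM, and MelJuSo held 3.17, 3.37 and 4.35 CPM with vehicle and 3.19, 2.99 and 2.97 CPM with IFNg. The MelJuSo groups overlapped. HT29 minus MelJuSo was 6.42 (adjusted p = 9.53e-70) and A549 minus MelJuSo was 3.84 (adjusted p = 3.04e-17).

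Within the list the lines did not keep a fixed ratio. IFIT1, which binds foreign RNA, rose by 5.76 ± 0.06 in HT29 and by 1.75 ± 0.13 and 0.96 ± 0.18 in A549 and MelJuSo. ISG15, a ubiquitin-like modifier, rose by 4.86 ± 0.05 in HT29 and 4.37 ± 0.14 in A549, a pair not called different (-0.49, 95% interval -0.96 to -0.01, adjusted p = 0.114), and by 1.57 ± 0.13 in MelJuSo. OAS3, a sensor of double-stranded RNA, rose by 4.10 ± 0.04, 1.08 ± 0.05 and 0.67 ± 0.04 in HT29, A549 and MelJuSo. ISG20, an RNA exonuclease, rose by 7.24 ± 0.13, 2.36 ± 0.15 and 0.26 ± 0.05 in the same order, and its MelJuSo vehicle level of 106 to 108 CPM was above that of the other lines. IFIH1, the RNA sensor MDA5, rose by 5.82 ± 0.06, 3.02 ± 0.13 and 0.61 ± 0.08 in that order.

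Other members had their largest fitted rise outside HT29. BST2, the virion tether tetherin, was chosen after its values were seen. It rose in HT29 (2.51 ± 0.06, from 62.1 and 69.8 CPM) and in MelJuSo (6.69 ± 0.24, from 0.235, 0.562 and 0 CPM to 28.1, 30.7 and 28.9 CPM), and in A549 it stood at 136 times the vehicle level (95% counting interval 37.2 to 1127). APOL1, a trypanolytic apolipoprotein chosen in the same way, held fewer than 10 counts in MelJuSo vehicle libraries (0.117, 0.281 and 0.145 CPM) and 16.5, 19.3 and 17.5 CPM with IFNg, and it rose by 4.67 ± 0.08 in A549 and 4.54 ± 0.06 in HT29, a pair not called different (0.12, 95% interval -0.15 to 0.39).

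Of 21 guanylate-binding protein and other IFNg-inducible genes tested, all rose in HT29, 18 in A549 and 17 in MelJuSo, none fell, and 17 differed between lines. The median change was 6.39, 3.32 and 1.89 with the floor, and 8.89, 3.85 and 1.98 as fitted. GBP1, a GTPase of cell-autonomous defence, reached 89.9 and 93.4 CPM in A549, 2134 and 2049 CPM in HT29 and 30.1, 28.4 and 29.9 CPM in MelJuSo, from at most 1.52 CPM in any vehicle library. GBP5 had no count with vehicle in any line, and was at least 48.2-fold higher in A549, at least 4893-fold in HT29 and at least 3.70-fold in MelJuSo, where 1 IFNg library was still at 0 and the GBP5 call was lost without IFNg replicate 2 (adjusted p = 0.0578). IFI16, a sensor of nuclear DNA, rose by 9.09 ± 0.13 in HT29, 2.85 ± 0.24 in A549 and 0.36 ± 0.04 in MelJuSo, whose vehicle level of 269 to 288 CPM was close to the induced level of HT29 (332 and 336 CPM). SLFN5, a Schlafen family gene, rose by 4.47 ± 0.06 in HT29 and 1.09 ± 0.09 in A549, with overlapping groups in MelJuSo (-0.01 ± 0.05). ICAM1, the ligand of LFA-1, rose by 6.39 ± 0.08 in HT29 and 1.96 ± 0.04 in MelJuSo, where vehicle libraries already held 120 to 126 CPM, and reached 5.35 and 4.56 CPM in A549.

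The apolipoprotein L, TRIM and PARP genes followed: 18 of 19 differed, and 19 rose in HT29, 16 in A549 and 16 in MelJuSo, with none lowered and medians of 3.57, 1.90 and 0.85. PARP14, an ADP-ribosyltransferase, rose by 4.31 ± 0.04, 2.26 ± 0.05 and 1.37 ± 0.04 in HT29, A549 and MelJuSo. PML, the scaffold of nuclear bodies, rose by 3.57 ± 0.07 in HT29 and by 0.88 ± 0.13 and 0.66 ± 0.05 in A549 and MelJuSo, which were not called different (0.22, 95% interval -0.05 to 0.49). PARP10 rose by 4.29 ± 0.16 in A549, 3.59 ± 0.08 in HT29 and 0.85 ± 0.06 in MelJuSo.

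**Figure D3:**
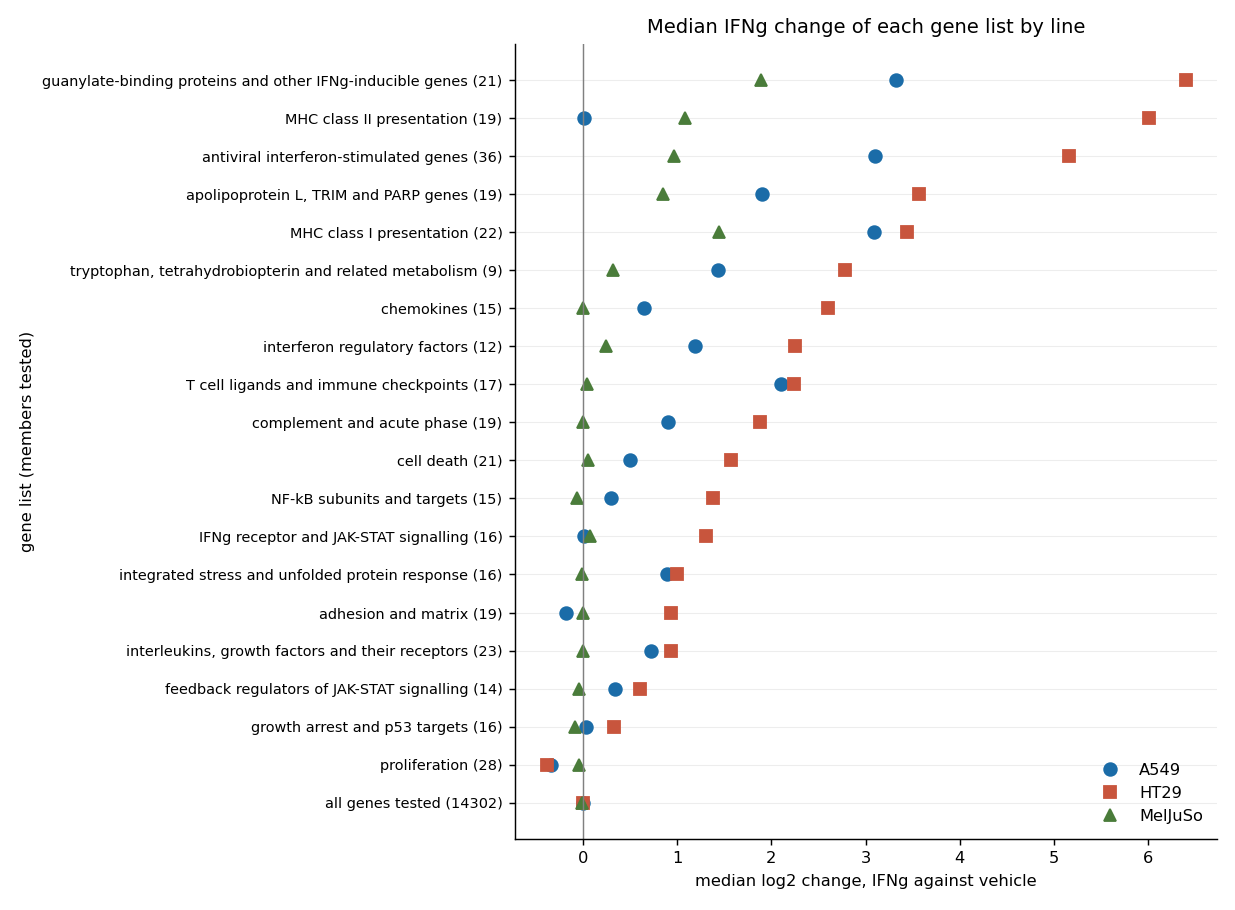
Median log2 change with IFNg against vehicle of each gene list (number of members tested in brackets) in A549 (circles), HT29 (squares) and MelJuSo (triangles), with genes under 3 counts in a group set at that floor. HT29 lies to the right for most lists, the MHC class II median of A549 is at 0.02, and the medians of all genes tested lie between -0.0049 and 0.

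Of 9 genes tested for tryptophan, tetrahydrobiopterin and related metabolism, 8 differed between lines, with 8 raised in HT29, 7 in A549 and 3 in MelJuSo. IDO1, which starts tryptophan breakdown, was switched on from 0 in A549 (202 and 207 CPM, at least 931-fold) and HT29 (891 and 881 CPM, at least 4471-fold). In MelJuSo it went from 0, 0.281 and 0 CPM to 38.8, 42.2 and 48.1 CPM, 486 times the vehicle level (95% counting interval 134 to 4022). IDO1 was at or near 0 with vehicle and present with IFNg in all 3 lines. WARS, the tryptophanyl-tRNA synthetase, rose by 3.85 ± 0.04 in A549, 5.88 ± 0.04 in HT29 and 3.13 ± 0.03 in MelJuSo. GCH1, which makes tetrahydrobiopterin, rose by 2.91 ± 0.07 in HT29, and its groups overlapped in A549 and MelJuSo. NAMPT, an enzyme of NAD synthesis, rose in A549 (1.43 ± 0.05) and HT29 (1.27 ± 0.05), with 0.08 ± 0.05 in MelJuSo. SOD2, the mitochondrial superoxide dismutase, rose by 2.78 ± 0.06 in HT29, 0.67 ± 0.07 in A549 and 0.49 ± 0.04 in MelJuSo.

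Of 19 complement and acute phase genes tested, 11 differed, near the 54.6% of all genes tested. Of the 19, 15 rose in HT29, 11 in A549 and 5 in MelJuSo. C1S, a protease of the classical complement pathway, rose from 81.8 and 73.7 CPM to 500 and 500 CPM in A549 (2.69 ± 0.05). In HT29 it was at 0.415 and 0.253 CPM with vehicle and at 250 and 249 CPM with IFNg, and in MelJuSo at 0.117, 0.421 and 0.290 CPM and then at 36.5, 34.8 and 36.4 CPM. A549 was the line with a high vehicle level here. C3, the central complement component, rose by 2.78 ± 0.09 in A549, was 276 times higher in HT29 (95% counting interval 94.1 to 1341) and was at or below 0.145 CPM in every MelJuSo library. CD55, which protects cells from complement, rose by 2.2 ± 0.06 in HT29 and 1.53 ± 0.06 in A549, beside 0.03 ± 0.05 in MelJuSo.

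NF-kB subunits and targets differed for 14 of 15 genes tested. HT29 raised 13 and lowered 0 (11 and 1 with total-count scaling), A549 raised 8 and lowered 2, MelJuSo raised 2 and lowered 3, and the medians were 1.38, 0.30 and -0.06. The count of genes called in opposite directions in at least 1 pair of lines was 5 of 15, beside 1507 (10.5%) over all genes. BIRC3, an inhibitor of cell death, rose by 4.31 ± 0.08 in HT29 and 0.62 ± 0.07 in A549, with -0.22 ± 0.15 in MelJuSo. TNFAIP3, which shuts NF-kB signalling off, rose by 4.27 ± 0.18 in HT29 and 0.31 ± 0.06 in MelJuSo. HT29 stood apart from both other lines by a like amount: A549 minus HT29 was -3.98 and HT29 minus MelJuSo was 3.96. TNIP1, the partner of TNFAIP3, rose by 1.96 ± 0.06 in HT29 with overlapping groups in both other lines. NFKB2, a subunit of the non-canonical pathway, rose in A549 (1.52 ± 0.09) and HT29 (2.02 ± 0.09), beside -0.07 ± 0.08 in MelJuSo.

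Cell death genes differed for 19 of 21 tested, with 20 raised in HT29, 15 in A549 and 7 in MelJuSo and 0, 1 and 1 lowered. PMAIP1, the BH3 protein NOXA, rose by 3.95 ± 0.09 in HT29, 2.39 ± 0.09 in A549 and 0.83 ± 0.08 in MelJuSo. TNFRSF10B, a receptor of the death ligand TRAIL, rose by 1.30 ± 0.05 in HT29 and 0.77 ± 0.05 in A549, beside -0.11 ± 0.04 in MelJuSo. The TRAIL gene TNFSF10 itself rose by 6.84 ± 0.06 in HT29, to 1388 and 1422 CPM, reached 6.87 and 7.80 CPM in A549, and did not exceed 0.145 CPM in any MelJuSo library. CASP1, the inflammasome caspase, had at most 0.283 CPM with vehicle and reached 10.8 and 12.1 CPM in A549, 12.2 and 13.5 CPM in HT29 and at most 0.290 CPM in MelJuSo.

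Proliferation genes were mostly lowered in both carcinoma lines and mostly not called in the melanoma line. Of 28 tested, 25 differed between lines. A549 lowered 25 and raised 1, HT29 lowered 17 and raised 4, and MelJuSo lowered 4 and raised 0. The medians were -0.34, -0.38 and -0.04, and with total-count scaling HT29 lowered 24 and raised 0, with a median of -0.60. MKI67, the antigen Ki-67, was at 921 and 821 CPM in A549 with vehicle and 588 and 540 CPM with IFNg. HT29 went from 1227 and 1191 CPM to 897 and 932 CPM, and MelJuSo held 565, 563 and 583 CPM and then 530, 584 and 566 CPM. The A549 and HT29 groups were apart and the MelJuSo groups overlapped. A549 minus MelJuSo was -0.60 (adjusted p = 1.62e-18) and HT29 minus MelJuSo was -0.38 (adjusted p = 2.69e-10). The smaller difference between A549 and HT29 (-0.22) was lost with total-count scaling (-0.05, adjusted p = 0.479).

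TOP2A, a topoisomerase of dividing cells, fell by 0.90 in HT29 and 0.17 in A549. Its fall of 0.10 in MelJuSo rested on overlapping groups and was lost with RLE size factors (adjusted p = 0.0548). BIRC5 and CCNB1 fell by 0.97 and 0.76 in HT29 and by 0.35 and 0.38 in A549, beside -0.04 ± 0.03 and -0.05 ± 0.04 in MelJuSo. MYC, a driver of growth, was the single list member raised in A549: 133 and 136 CPM with vehicle and 214 and 209 CPM with IFNg, a rise of 0.65 ± 0.05. Its groups overlapped in HT29 and MelJuSo, and A549 differed from both (0.66, adjusted p = 3.00e-19, and 0.69, adjusted p = 2.91e-23).

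Growth arrest and p53 target genes differed for 11 of 16, without a common direction: 5 rose and 3 fell in A549, 9 and 6 in HT29, and 1 and 5 in MelJuSo. CDKN1A, which encodes the cell cycle inhibitor p21, was at 92.9 and 94.8 CPM in A549 with vehicle and 136 and 121 CPM with IFNg. HT29 moved from 12.6 and 14.2 CPM to 160 and 157 CPM, and MelJuSo from 220, 230 and 221 CPM to 182, 191 and 155 CPM. HT29 rose from the lowest vehicle level to the level of the others, and MelJuSo moved the other way. The changes were 0.45 ± 0.06, 3.56 ± 0.09 and -0.34 ± 0.04, and every pair of lines differed (adjusted p at most 2.68e-17). GDF15, a stress cytokine, rose in HT29 (1.05 ± 0.06) and A549 (0.58 ± 0.05) and fell by 0.19 in MelJuSo, where its level was 4290 to 5111 CPM. GADD45A, a DNA damage response gene, rose by 1.49 ± 0.11 in A549 and fell by 0.80 in HT29 and by 0.34 in MelJuSo, where GADD45A lost the call without IFNg replicate 3 (-0.23, adjusted p = 0.125). BTG2, an antiproliferative gene, fell by 1.88 in HT29, beside 0.12 ± 0.13 in A549. HT29 minus MelJuSo was -1.49. A549 minus MelJuSo was 0.51, a call lost in some of the alternative fits.

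The list for the integrated stress and unfolded protein responses differed in all 16 genes. A549 raised 13 and lowered 2, HT29 raised 13 and lowered 1, and MelJuSo raised 2 and lowered 4, and 6 were called in opposite directions in some pair. ASNS, the asparagine synthetase, was at 43.6 and 48.6 CPM in A549 with vehicle and 275 and 276 CPM with IFNg. HT29 held 43.6 and 44.1 CPM and then 45.0 and 41.2 CPM, and MelJuSo 122, 124 and 110 CPM and then 107, 92.0 and 96.7 CPM. Its IFNg libraries lay above vehicle in A549, overlapped with it in HT29 and lay below it in MelJuSo. The change in A549 was 2.58 ± 0.06, A549 minus HT29 was 2.60 (adjusted p = 3.43e-74) and A549 minus MelJuSo was 2.85 (adjusted p = 1.18e-118).

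TRIB3, a pseudokinase, rose by 2.53 ± 0.15 in A549, and its call in HT29 (0.51 ± 0.18) was lost in 13 of the alternative fits. CHAC1, which degrades glutathione, rose in all 3 lines, by 3.69 ± 0.31 in A549, 1.61 ± 0.36 in HT29 and 0.96 ± 0.19 in MelJuSo. ATF4, a transcription factor that activates ASNS and TRIB3, was chosen after its values were seen and rose by 1.26 ± 0.05 in A549, with -0.07 ± 0.05 in HT29 and -0.08 ± 0.04 in MelJuSo. HSPA5 and PDIA4 of the endoplasmic reticulum ran the other way. HSPA5, the chaperone BiP, rose by 1.28 ± 0.04 in HT29 and 0.35 ± 0.04 in A549 and fell by 0.17 in MelJuSo. PDIA4, a protein disulfide isomerase, rose by 0.95 ± 0.04 in HT29 and fell by 0.24 in A549. ATF3, a stress-induced repressor, rose in HT29 (3.98 ± 0.14), A549 (2.37 ± 0.18) and MelJuSo (0.25 ± 0.09). The ATF3 call in MelJuSo was lost with DESeq2 (adjusted p = 0.193) and without IFNg replicate 1 (0.11, adjusted p = 0.597), vehicle replicate 2 (adjusted p = 0.217) or vehicle replicate 3 (adjusted p = 0.103).

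Adhesion and matrix genes differed for 14 of 19 tested, with 14 raised and 1 lowered in HT29, 7 and 5 in A549 and 3 and 2 in MelJuSo. CEACAM6, a carcinoembryonic adhesion molecule, was at 65.2 and 79.8 CPM in A549 with vehicle and at 30.3 and 27.4 CPM with IFNg, while HT29 moved from 16.9 and 13.5 CPM to 205 and 197 CPM. It fell by 1.33 in A549 and rose by 3.73 ± 0.09 in HT29, a difference of -5.06 (adjusted p = 1.91e-125), and MelJuSo had no count. The matrix protease MMP7 fell by 0.78 in A549 and rose by 2.09 ± 0.07 in HT29, again with no count in MelJuSo. CEACAM1, a relative of CEACAM6 chosen after its values were seen, rose by 3.66 ± 0.15 in A549, 1.96 ± 0.04 in HT29 and 1.27 ± 0.04 in MelJuSo, and every pair of lines differed.

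Cytokines and their receptors differed for 17 of 23 tested, with 17 raised in A549, 16 in HT29 and 6 in MelJuSo. CSF1, the macrophage growth factor, rose by 5.73 ± 0.20 in HT29, 1.66 ± 0.11 in MelJuSo and 0.95 ± 0.09 in A549. IL6ST, the shared receptor chain gp130, rose by 0.98 ± 0.04 in A549 and 0.93 ± 0.04 in HT29, a pair whose difference of 0.05 had a 95% interval of -0.07 to 0.16, beside -0.04 ± 0.04 in MelJuSo. EREG, a ligand of the EGF receptor, rose by 1.25 ± 0.06 in A549, beside -0.05 ± 0.07 in HT29. LIF rose by 1.27 ± 0.07 in HT29 and 0.65 ± 0.06 in A549, beside -0.07 ± 0.04 in MelJuSo.

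Genes set apart in a single line were counted where its change differed from both others in the same direction. A549 was above both for 1127 genes (7.88%) and below both for 786 (5.5%), HT29 above for 1870 (13.1%) and below for 1865 (13%), and MelJuSo above for 698 (4.88%) and below for 855 (5.98%). With both differences at least 2-fold the counts were 94 (0.657%) and 69 (0.482%), 590 (4.13%) and 326 (2.28%), and 41 (0.287%) and 147 (1.03%). HT29 itself was called higher in 1819 of its 1870 and lower in 1824 of its 1865, and A549 higher in 1019 of its 1127. MelJuSo itself was not called in 577 of its 698 and 572 of its 855.

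Among the genes with the most positive change in A549 were ASNS, CHAC1 and TRIB3 of the stress list, described above, with ADM2, FAM129A, PCK2, SMOX and TGM2. FAM129A, a stress-induced gene, rose by 3.19 ± 0.14, PCK2, the mitochondrial PEP carboxykinase, by 2.32 ± 0.07, and SMOX, the spermine oxidase, by 2.29 ± 0.05. FAM129A went from 5 and 6.23 CPM to 48.6 and 55.0 CPM in A549, was at 11.8 to 14.3 CPM in all HT29 libraries, and fell by 0.45 in MelJuSo from 166 to 184 CPM. TGM2, a transglutaminase, rose in A549 from 259 and 275 CPM to 2038 and 2007 CPM, whereas HT29 held 1278 and 1318 CPM with vehicle and 2307 and 2350 CPM with IFNg. The A549 level with IFNg thus came near that of HT29. Below both lines, HSPA1A, the inducible HSP70, fell in A549 from 102 and 101 CPM to 23.5 and 21.9 CPM, and the proapoptotic gene BMF from 12.6 and 10.5 CPM to 2.75 and 2.65 CPM. CDS1, ZNF608, SERPINF1, DSC2 and ITGB8 fell by between 1.21 and 2.35.

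Among the genes set apart upwards in HT29 was HERC5. HERC5, the ligase of ISG15, rose from 2.07 and 2.02 CPM to 81.3 and 77.7 CPM in HT29, and it was at 14.1 to 27.9 CPM in every library of the other lines. HT29 thus had the lowest vehicle level of HERC5 and the highest IFNg level. HAPLN3, HLA-DMA, ISG20, MUC1, USP18, the histone deacetylase HDAC9 and the Wnt receptor FZD4 rose by between 4.36 and 7.36. HDAC9 and FZD4 were called lower in A549, by 0.75 and 0.54, and the HDAC9 call was lost without any 1 of the 4 A549 libraries (adjusted p of 0.0579 to 0.0989).

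Genes set apart downwards in HT29 included PTGS2, which encodes the cyclooxygenase COX-2. It was at 60.2 and 63.8 CPM in HT29 with vehicle and at 8.23 and 8.84 CPM with IFNg. In A549 it was at 163 and 172 CPM and then at 196 and 193 CPM, and in MelJuSo between 1.01 and 1.59 CPM. PTGS2 fell by 2.86 in HT29 and rose by 0.21 ± 0.06 in A549, a difference of 3.07 (adjusted p = 1.58e-72), and the PTGS2 call in A549 was lost with DESeq2 (adjusted p = 0.0635). F2R, the thrombin receptor, fell by 3.01 in HT29 (333 and 339 CPM to 39.4 and 44.4 CPM), beside 0.01 ± 0.06 in A549 and a fall of 0.15 in MelJuSo that was lost with DESeq2 (adjusted p = 0.0589). KIAA1199, MAGI2, SLC35D1, the DNA methyltransferase DNMT3B, WNK4 and DGAT2 fell by between 1.15 and 3.61.

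Of the 698 genes for which MelJuSo was above both other lines, the 8 ranked first by the smaller difference are described here, and of these TMEM158 and CDCP1 rose in MelJuSo. TMEM158, a membrane protein induced by RAS signalling, was at 13.0, 13.3 and 14.3 CPM with vehicle and at 74.6, 85.2 and 70.1 CPM with IFNg in MelJuSo, a rise of 2.50 ± 0.09. HT29 held 18.4 and 19.1 CPM and then 24.7 and 30.9 CPM, and A549 3.26 to 3.84 CPM in all libraries. CDCP1, a transmembrane adhesion protein, rose by 3.21 ± 0.23 in MelJuSo, but from 0.870 to 1.40 CPM to 9.35 to 10.6 CPM, far below the 484 and 485 CPM of HT29 with IFNg. For the other 6 genes, PDE5A, REPS2, NEURL1B, C5orf62, LOC404266 and CCDC84, MelJuSo itself was not called, and the differences from A549 of C5orf62 and CCDC84 were lost in 6 and 8 of the alternative fits.

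Of the 855 genes for which MelJuSo was below both, the 8 ranked first all rose in A549 and HT29. TYMP, the thymidine phosphorylase, was at 2.58 and 2.27 CPM in A549 with vehicle and 47.5 and 47.4 CPM with IFNg. HT29 moved from 2.77 and 2.65 CPM to 395 and 410 CPM, and MelJuSo held 1.53, 1.12 and 1.16 CPM and then 1.88, 1.62 and 1.35 CPM. All vehicle libraries were below 3 CPM, and the MelJuSo groups overlapped. SP140L, a nuclear body gene, rose by 2.63 ± 0.22 in A549 and 2.52 ± 0.11 in HT29, a pair not called different (0.11, 95% interval -0.43 to 0.66), beside 0.10 ± 0.10 in MelJuSo. IFIT3, a partner of IFIT1, rose in all lines, by 4.01 ± 0.10 in A549, 6.68 ± 0.05 in HT29 and 1.56 ± 0.06 in MelJuSo.

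**Figure D4:**
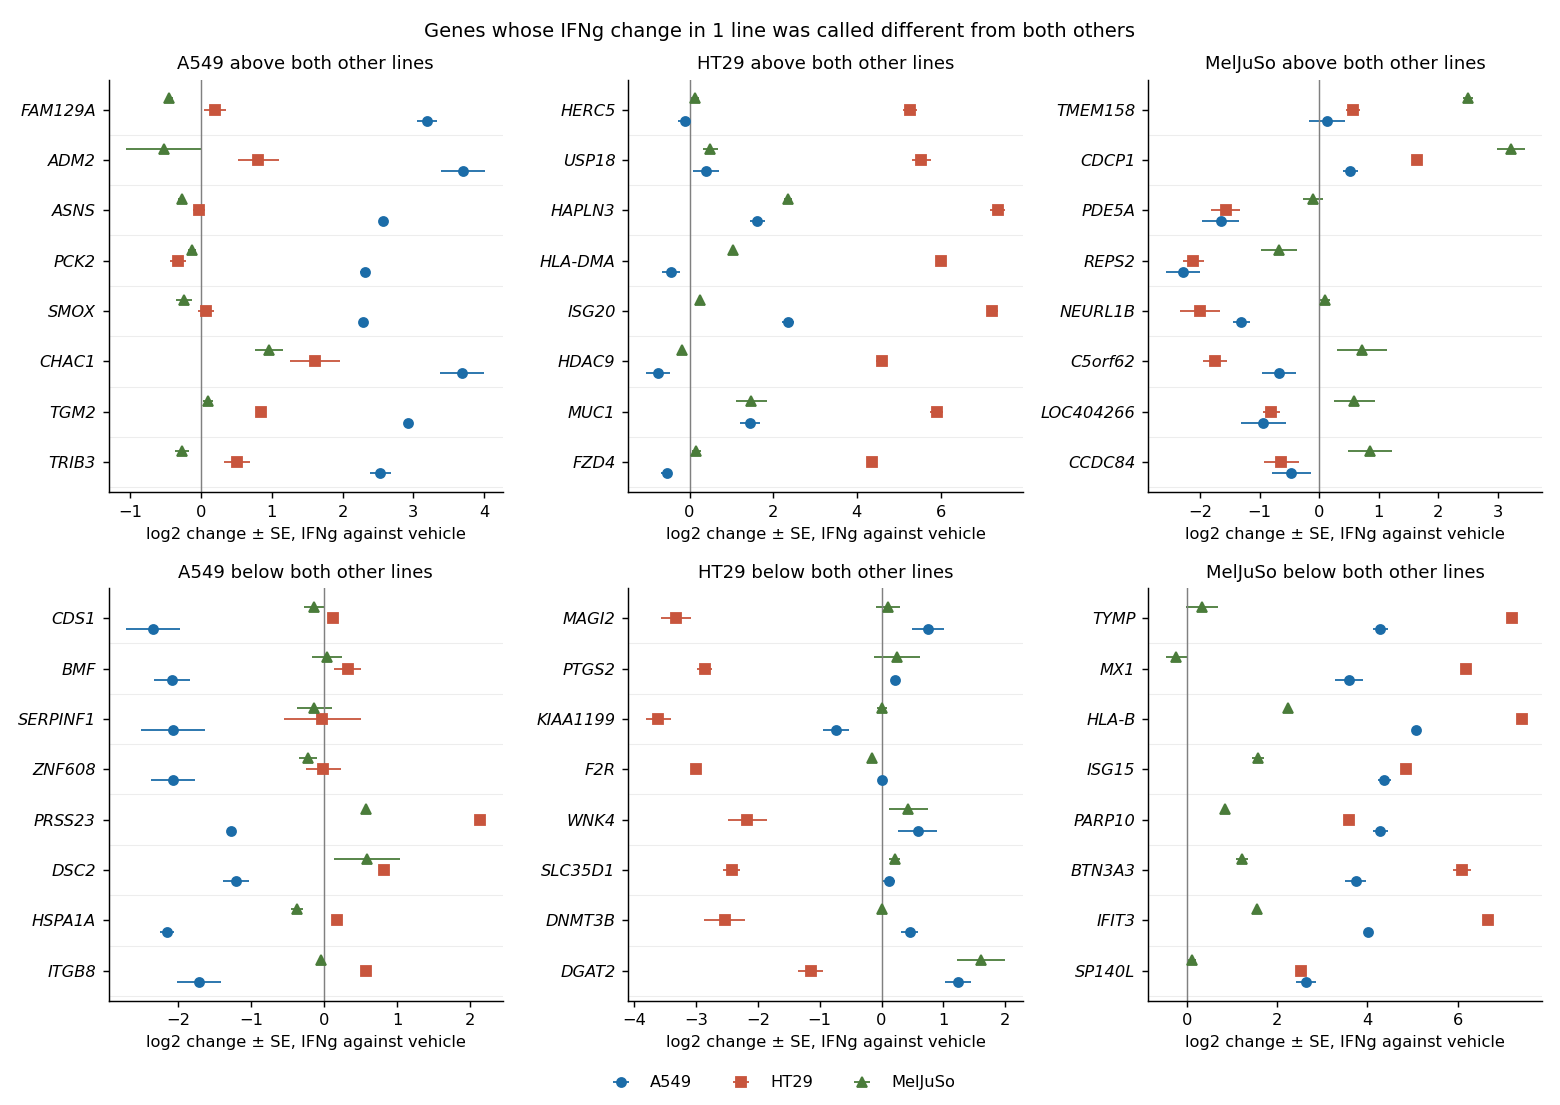
Log2 change ± SE with IFNg against vehicle in A549 (circles), HT29 (squares) and MelJuSo (triangles) for up to 8 genes per line and direction whose change differed from both other lines; genes were ranked by the smaller of the 2 differences. In the lower right panel HLA-B, ISG15 and IFIT3 rise in all 3 lines and least in MelJuSo, while TYMP and MX1 stay near 0 there.

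In all, 1507 genes (10.5%) were called higher in 1 line, lower in another and different between them, 1236 of them (8.64%) in the pair A549 and HT29, 283 (1.98%) in A549 and MelJuSo and 311 (2.17%) in HT29 and MelJuSo. DESeq2 gave 958 such genes. Both changes were at least 2-fold for 49 genes (0.343%). Opposed genes with more than 10 counts in every group were ranked by the smaller of the 2 changes. The 10 ranked first all opposed A549 and HT29. VANGL2, a planar polarity gene, was at 7.12 and 5.95 CPM in A549 with vehicle and at 1.51 and 2.94 CPM with IFNg. HT29 moved from 16.7 and 18.3 CPM to 98.7 and 113 CPM, and the MelJuSo groups overlapped, between 2.99 and 5.93 CPM. A549 minus HT29 was -4.15 (95% interval -4.75 to -3.55, adjusted p = 1.50e-32).

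INSIG1, which restrains cholesterol synthesis, fell by 1.33 in A549 (107 and 120 CPM to 43.0 and 47.4 CPM), rose by 1.39 ± 0.04 in HT29 (168 and 185 CPM to 460 and 468 CPM) and fell by 0.17 in MelJuSo. The secreted protease PRSS23 fell by 1.28 in A549 from 566 and 552 CPM to 243 and 217 CPM, and rose by 2.13 ± 0.07 in HT29 and 0.57 ± 0.04 in MelJuSo. NFKBIZ, an atypical inhibitor of NF-kB, fell by 1.18 in A549 and rose by 1.37 ± 0.08 in HT29. GRAMD1C, HERC3, MIR210HG and the tetraspanin CD82 showed the same directions. For MIR210HG, the rise in HT29 (1.18) was lost with DESeq2, with total-count scaling and without any 1 of the 4 HT29 libraries (adjusted p of 0.069 to 0.128), and the fall in A549 without its IFNg replicate 2 (adjusted p = 0.062) or vehicle replicate 2 (adjusted p = 0.146). The fall in A549 was also lost for GRAMD1C without its IFNg replicate 2 (adjusted p = 0.0662) and for CD82 without its vehicle replicate 2 (adjusted p = 0.0712). The kinesin KIF21B and PHLDB2 showed the reverse, with rises of 2 ± 0.11 and 1.5 ± 0.07 in A549 and falls of 1.44 and 1.48 in HT29.

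**Figure D5:**
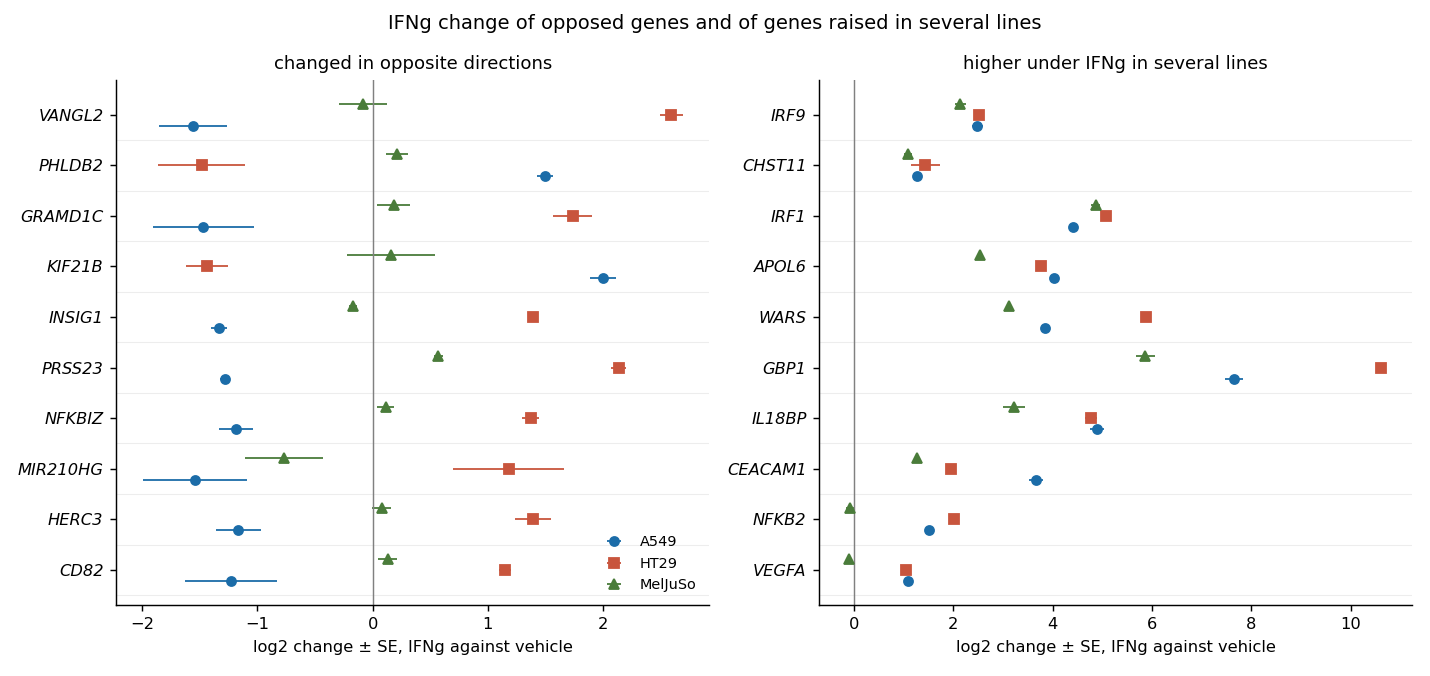
Log2 change ± SE with IFNg against vehicle in A549 (circles), HT29 (squares) and MelJuSo (triangles). Left, the 10 genes with the largest opposed changes among those with more than 10 counts in every group. They have A549 and HT29 on opposite sides of 0. Right, 10 genes higher with IFNg in several lines, picked by hand and not by rank. They run from IRF9 and CHST11, whose changes lie together, to NFKB2 and VEGFA, which are near 0 in MelJuSo.

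A common core could hold no more than the 142 genes raised at least 2-fold in MelJuSo. Of 14302 genes tested, such rises were called in all 3 lines for 90 and in A549 and HT29 alone for 167. HT29 and MelJuSo alone shared 30, and A549 and MelJuSo alone 2. Rises in 1 line numbered 925 (HT29), 195 (A549) and 20 (MelJuSo). No gene fell at least 2-fold in all 3, where MelJuSo had 23 such falls, while 65 did so in A549 and HT29. Within the 90, the change differed between lines by the joint test for 78, beside 54.6% of all genes tested. The largest fitted change among the 90 was in HT29 for 66, in A549 for 20 and in MelJuSo for 4. Of the 48 with more than 10 counts in every group, 46 differed by the joint test. IRF9, described above, and CHST11, a chondroitin sulfotransferase, were the 2 without a call by the joint test, although HT29 minus MelJuSo was called for IRF9. CHST11 rose by 1.27 ± 0.08 in A549, 1.44 ± 0.29 in HT29 and 1.10 ± 0.08 in MelJuSo, with 95% intervals of -0.77 to 0.43 for A549 minus HT29, -0.06 to 0.41 for A549 minus MelJuSo and -0.26 to 0.95 for HT29 minus MelJuSo. The other 10 genes without a call by the joint test had 10 or fewer counts in at least 1 group. Among them, UBD, a ubiquitin-like protein, stood at 832 and 850 CPM in HT29, 22.7 and 22.7 CPM in A549 and at most 0.435 CPM in MelJuSo. Its place among the 90 was not stable. The UBD call in MelJuSo was lost with DESeq2 (adjusted p = 0.0887) and, among other fits, without IFNg replicate 1 (adjusted p = 0.137) or IFNg replicate 2 (adjusted p = 0.123).

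Some responsive genes were at or near 0 in 1 or 2 lines with and without IFNg, so no change could be measured there. A2M, the protease inhibitor alpha-2-macroglobulin, rose by 2.32 ± 0.04 in MelJuSo, from 125, 117 and 117 CPM to 609, 581 and 599 CPM, and did not exceed 0.303 CPM in any A549 or HT29 library. EPSTI1 was at 0 in all A549 libraries and at 347 and 329 CPM in HT29 with IFNg. TRIM31, a ubiquitin ligase, rose by 4.10 ± 0.16 in A549 and 2.71 ± 0.04 in HT29 and was at most 0.140 CPM in MelJuSo. STC2, a secreted stress glycoprotein, rose by 3.51 ± 0.17 in A549 (20.2 and 24.9 CPM to 268 and 246 CPM) and was at 0 in HT29, and the cystathionine synthase gene CBS rose by 2.28 ± 0.12 in A549, fell by 0.38 in MelJuSo and was at 0 in HT29.

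The same differences were computed in the 14 libraries of these lines that carried the guide against PTPN2, none of which entered the fit above. This comparison was chosen after the data were seen. Of the differences of at least 2-fold in control cells, 1421 of 1748 (81.3%) were called with the same sign for A549 against HT29, 319 of 538 (59.3%) for A549 against MelJuSo and 1208 of 1477 (81.8%) for HT29 against MelJuSo, where 45.7%, 29.2% and 48.7% of all genes tested there were called in either direction. The opposite sign was called for 7, 11 and 11. In control cells 647 genes were called higher and 949 lower in MelJuSo, against 3045 and 3012 in A549. Of 14533 genes tested with the guide against PTPN2, 3178 and 3550 were called in MelJuSo and 3411 and 3406 in A549. HT29 had 4301 and 4403. The MelJuSo counts thus lay close to those of A549 in these libraries. At least 2-fold, 573 genes were called up and 274 down in MelJuSo, 725 and 521 in A549 and 1659 and 1149 in HT29. JAK2 rose by 4.32 ± 0.08 in HT29, 1.86 ± 0.10 in A549 and 0.72 ± 0.12 in MelJuSo. TYMP and MX1 were again not called in MelJuSo (0.39 ± 0.37 and 0.36 ± 0.25). IRF1 rose by 5.38 ± 0.08 in A549 and 4.51 ± 0.06 in HT29, so that A549 minus HT29 was 0.87 where it was -0.65 in control cells. ASNS, which fell by 0.27 in MelJuSo control cells, rose by 1.44 ± 0.05 in MelJuSo with the guide against PTPN2.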

How the data were processed

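The 14 libraries were mRNA sequenced with a directional kit and paired-end reads, per the labels' protocols. The tools named are HTSeq 0.6.1p1, Bowtie2 2.2.4, DESeq2, Trimmomatic 0.33 and bcl2fastq 2.17.1.14, with the builds hg19 and mm10, per the submitters' processing notes. The strand setting of the counting is not given in the sources used here. The deposited values were raw read counts per gene symbol, not normalized by the authors. The libraries held 6320043 to 8616634 counts, and the depth sets the precision of low genes.

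Genes were filtered with filterByExpr by group, scaled by TMM and fitted with edgeR 4.0.16 (robust quasi-likelihood, R 4.3.3, limma 3.58.1) as 6 group means. The joint F test over the lines and the 3 pairwise differences of the IFNg change were adjusted by Benjamini-Hochberg over all 14302 genes and called below 0.05. An SE is that of the fitted log2 change, and all tests were two-sided. Where vehicle libraries had 0 counts, a fold is a lower bound against 3 counts over the group. Where a group had 1 to 3 counts, a ratio of counts with its 95% interval is given. These bounds and intervals cover counting error only. Differences between lines are printed for genes with more than 10 counts in each group concerned.

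The members, gene lists and naming rules were chosen with earlier results of these data known. Named are a set of 36 core genes and, by rank, up to 8 genes setting each line apart in each direction, 10 opposed genes, 10 genes raised at least 2-fold in every line without a call by the joint test, 6 genes at the floor in each line, and 4 of each list by the joint test. Results of some genes these rules name are not reported here. APOL1, ATF4, BST2, CEACAM1, HLA-DMB, VEGFA and the tissue markers CDX1, CDX2, NKX2-1, LYZ and PTPRC fell outside these rules and were chosen after their values were seen. APOL6 and IL18BP, drawn in a figure only, also fell outside these rules. Alternatives were RLE factors, TMM within each line, other filters, DESeq2 1.42.0, a replicate block, a fit with the 14 libraries carrying the guide against PTPN2, leaving out each library, and, chosen after seeing the data, total-count scaling and the PTPN2 guide libraries on their own. On simulated counts of 14134 genes with 200 changed, the joint test recovered 71 of 100 genes at 1.5-fold and 88 of 100 at 2-fold, with 4 false calls. The simulation changed these genes in HT29 alone and gave no other IFNg response. It therefore does not cover false calls where most genes change or scaling shifts.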

Additional observations from a re-analysis of the deposited data

Results flagged for a closer look

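Each of these was noted because the IFNg change differed between lines by the test of that difference. The change differed in at least 1 pair of lines for 7814 genes, between A549 and HT29 for 5998, between A549 and MelJuSo for 3934 and between HT29 and MelJuSo for 5552. For 1507 genes it was called in opposite directions in some pair of lines. Among the genes called in opposite directions in A549 and HT29, the difference in log2 change (A549 minus HT29) was -4.15 for VANGL2, -3.41 for PRSS23, -3.20 for GRAMD1C, -2.72 for INSIG1, -2.72 for MIR210HG, -2.56 for HERC3, -2.56 for NFKBIZ and -2.38 for CD82. It was 3.44 for KIF21B and 2.98 for PHLDB2.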

How the results depend on the processing

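The number of genes whose change differed between lines ranged from 6258 with DESeq2 to 8612 with total-count scaling, beside 7814, and from 7233 to 7800 when single libraries were left out. Of the 6258 and 8612, 6238 and 7101 were among the 7814. DESeq2 called 793 genes in MelJuSo in place of 1596, and 958 opposed genes in place of 1507; the cause was not tested. With a mean of at least 1 CPM required in every line, fewer genes were tested and the list counts fell to 9 for MHC class II, 3 for chemokines, 6 for complement, 8 for adhesion, 1 for lung markers, 1 for colon markers, and 0 for keratins, leukocyte markers and fibroblast markers. Leaving out single libraries gave 2 to 4 differing colon markers and 0 to 1 fibroblast markers. The other 240 of 242 counts of genes and 537 of 550 list counts stayed within 1.5 times.

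Of 7460 differences of named genes recomputed, 102 kept their direction but lost the call and 0 reversed. Among those lost most often were ASNS and IRF9 between HT29 and MelJuSo and BTG2, CCDC84 and STAT2 between A549 and MelJuSo. The joint test called UBD (adjusted p = 0.00128) and GBP5 (adjusted p = 0.00131) under DESeq2. Correlations of same-numbered deviations lay between -0.0192 and 0.0221, and of different-numbered ones between -0.0312 and 0.034. Spread between replicates was above counting error in every group, but not far above it. Chi-square per degree of freedom was 1.66 to 1.72 between MelJuSo IFNg libraries and 1.21 to 1.45 in the other groups. These correlations therefore cannot tell whether the replicate numbers pair samples. A fit with a replicate block called 7886 genes, 7766 of them shared. Low counts limit the sizes of rises from near 0, and 2 or 3 libraries per group limit the small differences.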
